A study of Homo sapiens with 12 samples.

Results

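The interferon regulatory factors (IRFs) are transcription factors that share a DNA-binding domain and act at GAAA-containing elements of interferon genes and interferon-stimulated genes. The 8 family members described here, IRF1, IRF2, IRF3, IRF4, IRF5, IRF7, IRF8 and IRF9, were taken by their Ensembl gene identifiers from the 54127 genes counted by RNAseq. Their mRNA levels were compared between C4-2 cells given a PBK inhibitor (PBKi) and C4-2 cells given vehicle. IRF1 mRNA rose about 3.24-fold in PBKi, and no other family member passed the main test, although IRF3 and IRF7 did in some alternative analyses.

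C4-2 is an established prostate cancer line, castration-resistant but still responsive to androgen, that was derived from LNCaP, so all libraries share 1 genetic background. A first group of 6 libraries came from cells given the vehicle DMSO, and a second group of 6 from cells treated for 6 h with 1 µM of the compound HI-TOPK-032 (PBKi), which inhibits the kinase PBK, also called TOPK. Both groups were grown in RPMI medium with 10% serum, and the labels describe the RNA as coming from flow sorted cells without giving the gate. Nothing states whether the libraries came from separate cultures, so each p-value measures the spread between these libraries, which may be technical.

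Cells respond to viral nucleic acid, cytokines and some forms of stress through 2 connected arms of IRF signalling. In the first, IRF3, IRF5 and IRF7 lie inactive in the cytoplasm until kinases such as TBK1 phosphorylate them, and they then switch on interferon genes such as IFNB1. In the second, secreted interferon binds its receptor, and JAK kinases activate STAT2, which joins IRF9 in the complex ISGF3. IRF1 differs from these because its own transcription is the main switch, driven by cytokine signals at gamma-activated sites (GAS) and by NF-kB, and IRF2 competes with it for the same DNA element.

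Promoter sequences are shown first, because that of IRF1 holds matches to the GAS and NF-kB motifs, through which its known inducers act. The 250 bases before the RefSeq start of IRF1 lie at chr5:131826466-131826715 of GRCh37, minus strand. Capitals mark a match to the GAS letters TTCNNNGAA, 124 to 116 bases before the start, and a match to the NF-kB motif, 50 to 41 bases before it.
IRF1 promoter: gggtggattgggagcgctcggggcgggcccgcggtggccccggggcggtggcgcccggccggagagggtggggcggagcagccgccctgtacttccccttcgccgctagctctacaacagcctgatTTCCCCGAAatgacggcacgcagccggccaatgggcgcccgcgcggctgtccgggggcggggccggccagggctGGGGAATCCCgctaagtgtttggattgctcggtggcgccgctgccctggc
The same GAS letters were found in the IRF9 promoter, 63 to 55 bases before its start, in the stretch chr14:24630379-24630438 of the plus strand, where they are again in capitals.
IRF9 promoter: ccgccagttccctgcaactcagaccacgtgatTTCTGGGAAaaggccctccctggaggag
Over 35116 RefSeq promoter windows of 250 bases, 6.57% held the GAS letters on either strand, 5.21% held the NF-kB motif and 3.02% held GAAA repeated after any 2 bases, the core of the interferon-stimulated response element (ISRE) bound by IRFs. Of the 8 IRF genes, 5 had a RefSeq promoter entry. Those of IRF4, IRF5 and IRF8 held none of these letters, and those of IRF1 and IRF9 held no ISRE core. The IRF8 windows (chr16:85936186-85936435 and chr16:85936371-85936620, plus strand) lie inside the gene. The bases before its canonical start at 85932768 were therefore not searched. These matches are descriptions of sequence and not measurements of binding.

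Between 9663203 and 28029908 reads per DMSO library fell on genes, and between 13122415 and 22817803 per PBKi library. The luminal prostate markers, which include KLK3, KLK2, KRT8 and HOXB13, were all detected, and their summed level was 5290 to 6202 CPM (read counts relative to library size after TMM normalisation) in DMSO and 2844 to 3771 CPM in PBKi. Immune markers were near the detection limit, since CD3D and MS4A1 had no count in any library and 8 of the 16 listed had at most 10 counts over all 12 libraries. Their summed level was 7.34 to 8.44 CPM in DMSO and 9.75 to 13.5 CPM in PBKi, mostly from CD68, CD4 and CD8A. The stromal and endothelial list summed to 25.2 to 30.3 CPM in DMSO and 23.0 to 28.6 CPM in PBKi. The part of other cells in the results that follow was not tested, and in bulk RNA fewer cells of a type and less RNA per cell cannot be told apart.

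Each gene with at least 10 counts in at least 6 libraries was put through edgeR's quasi-likelihood test, and Benjamini-Hochberg adjustment covered all 14505 genes tested. Of the 8 IRF genes, 6 passed the count filter, 1 was called higher in PBKi and 0 were called lower at an adjusted p under 0.05. Over all genes tested, 20.1% were called higher, 21.5% lower and 41.7% in either direction. IRF1 and IRF3 were the IRF genes with an unadjusted p under 0.05 in edgeR, and IRF1 alone had no overlap between the groups, against 20.1% of all genes tested in either direction. The median log2 fold change was 0.096 over the 6 IRF genes tested and -0.012 over all genes.

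IRF1, an activator of antigen presentation, antiviral and growth-restraining genes, lies on chromosome 5 of GRCh37 (minus strand). All its annotated transcripts together span 131776132 to 131844411. The canonical transcript of IRF1 spans only 131817301 to 131826465, and the promoter shown above lies directly before its start. In DMSO the level of IRF1 was lowest at 1.87 CPM, with a median of 2.59 and a highest value of 3.12 CPM. In PBKi the level of IRF1 ran from 7.29 through a median of 8.46 to 9.09 CPM. Every PBKi library was above every DMSO library. Mean levels were 2.55 ± 0.398 CPM in DMSO and 8.32 ± 0.750 CPM in PBKi (SD, n = 6 each), resting on 24 to 72 reads per DMSO library and 97 to 214 reads per PBKi library. The log2 fold change was 1.69 (standard error 0.11, 95% confidence interval 1.45 to 1.93, adjusted p = 3.42e-09 after Benjamini-Hochberg correction in edgeR). A two-sided exact permutation test on log2 CPM gave p = 0.00216, the smallest value that the 924 splits of 12 libraries allow. Of all genes tested, 1.44% had a larger log2 fold change, and IRF1 stood at position 210 among the 2921 genes called higher. Leaving out each library in turn gave log2 fold changes between 1.63 and 1.77, and the other analyses tried gave 1.61 to 1.86.

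IRF2, mostly a repressor at the element that IRF1 activates, lies on chromosome 4 (185306856 to 185395712, minus strand). Its level ran from 10.1 through a median of 11.0 to 12.05 CPM in DMSO and from 9.93 through 10.8 to 11.9 CPM in PBKi. The groups lay over each other. The log2 fold change was -0.02 (95% confidence interval -0.18 to 0.13, adjusted p = 0.819 in edgeR's quasi-likelihood test), so a change of IRF2 beyond 0.88-fold or 1.09-fold lay outside the interval. The sign of this small value was not stable, and it turned positive with library size alone as the scaling (0.023) and without DMSO replicate 4 (0.011) or PBKi replicate 5 (0.0073).

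IRF1 and IRF2 compete at the same sites, and their ratio is taken within a library. The log2 ratio of IRF1 to IRF2 was -2.07 ± 0.282 in DMSO and -0.38 ± 0.174 in PBKi (SD, n = 6 each), a difference of 1.69. In DMSO the libraries ran from -2.61 to -1.81 and in PBKi from -0.63 to -0.16, without overlap (two-sided exact permutation test, p = 0.00216, the smallest possible). In every library IRF1 had the lower level of the pair, by less in PBKi than in DMSO.

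**Figure D1:**
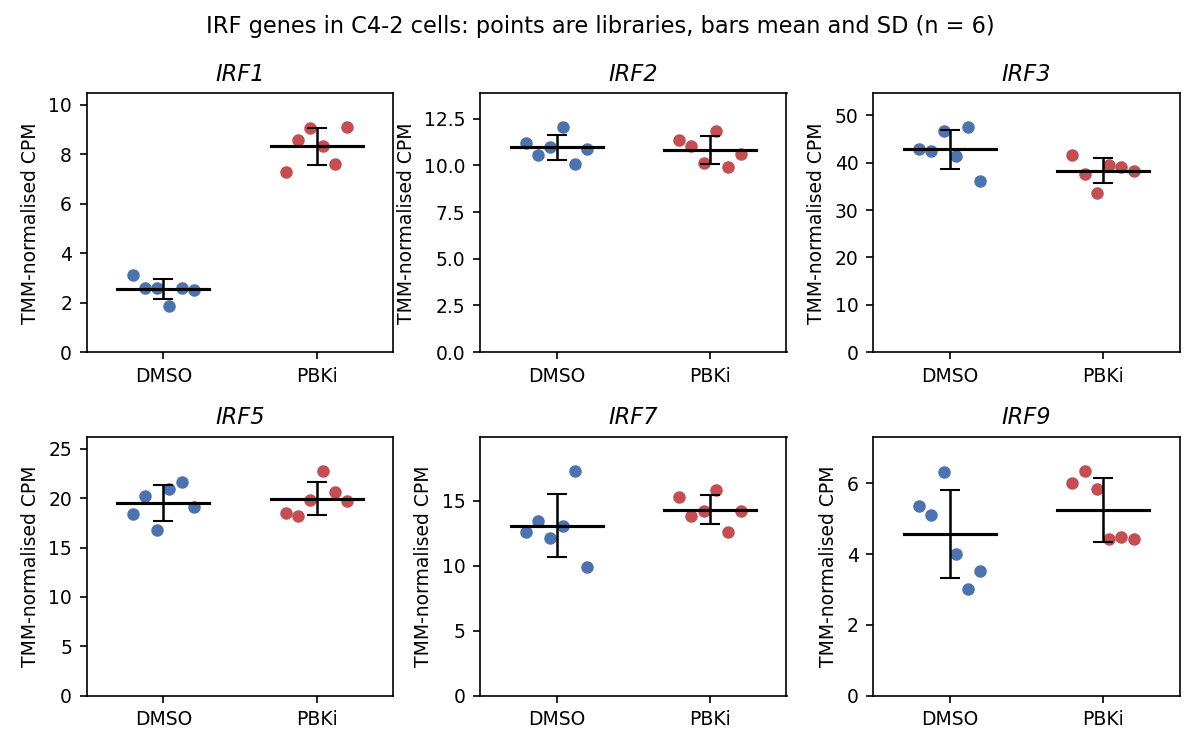
Levels of the 6 IRF genes tested in each library of C4-2 cells (TMM-normalised CPM on the vertical axis, DMSO in blue, PBKi in red, points are libraries, bars mean and SD, n = 6 per group). The 6 PBKi libraries of IRF1 sit between 7.29 and 9.09 CPM, above the highest DMSO library at 3.12 CPM, whereas the groups overlap for the other IRF genes.

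The IRFs that act below the sensors of infection were examined next. IRF3, the latent activator of IFNB1 that most cells carry at a steady level, lies on chromosome 19 (50162826 to 50169132, minus strand). It had the most reads of the family, with 36.1, 42.7 and 47.5 CPM as lowest, median and highest value in DMSO and 33.7, 38.6 and 41.6 CPM in PBKi. All 6 PBKi libraries lay below the DMSO mean, but the ranges overlapped. The log2 fold change was -0.17 (standard error 0.068, 95% confidence interval -0.31 to -0.022), with an unadjusted p of 0.0261 and an adjusted p of 0.0599 in edgeR. This value stood near the threshold, and without DMSO replicate 6 (adjusted p = 0.0136 in edgeR) or without PBKi replicate 1 (adjusted p = 0.0414 in edgeR) IRF3 was called lower. It was also called lower with a block for the replicate number (adjusted p = 0.0416 in edgeR). The same held with a covariate for the replicate sets 1 to 3 and 4 to 6 (adjusted p = 0.0443 in edgeR). Within replicates 1 to 3 IRF3 was called lower (log2 fold change -0.23, adjusted p = 0.0242 in edgeR). Within replicates 4 to 6 the log2 fold change was -0.093 (adjusted p = 0.564 in edgeR).

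IRF3 shares a head-to-head start with BCL2L12, an apoptosis-related gene on the other strand. The annotated exons of both overlap by 734 bases, which is 19.3% of the merged exons of IRF3, and whether the counting used strand is not given in the sources used here. BCL2L12 went from 35.8 ± 4.73 CPM in DMSO to 26.5 ± 2.71 CPM in PBKi (SD, n = 6 each), a change of -0.43 on the log2 scale (adjusted p = 0.000658, edgeR's quasi-likelihood test). BCL2L12 had no overlap between the groups, and how far reads in the shared stretch affect the value of IRF3 was not tested.

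IRF7, which amplifies interferon production and is itself an interferon-stimulated gene in most cells, lies on chromosome 11 (612553 to 615983, minus strand). It ran from 9.90 through a median of 12.9 to 17.3 CPM in DMSO and from 12.6 through 14.2 to 15.8 CPM in PBKi. The highest and the lowest library were both DMSO libraries. The log2 fold change was 0.15 (95% confidence interval -0.062 to 0.36, adjusted p = 0.249 in edgeR's quasi-likelihood test), so a rise beyond 1.28-fold lay outside the interval. The highest value belonged to DMSO replicate 5, and without that library IRF7 was called higher (log2 fold change 0.23, adjusted p = 0.0302 in edgeR).

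IRF5, a mediator of Toll-like receptor signalling that is best known in myeloid cells, lies on chromosome 7 (128577511 to 128590092, plus strand). It was detected in each library, with 16.8 to 21.6 CPM in DMSO (median 19.7) and 18.2 to 22.8 CPM in PBKi (median 19.8). The medians were nearly equal, and 1 PBKi library lay above all DMSO libraries. The log2 fold change was 0.05 (95% confidence interval -0.11 to 0.21, adjusted p = 0.658 in edgeR's quasi-likelihood test), and -0.00030 without DMSO replicate 3.

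IRF9, the DNA-binding subunit of ISGF3, lies on chromosome 14 (24630443 to 24637252, plus strand). Its level was 3.03 to 6.31 CPM in DMSO (median 4.56) and 4.42 to 6.36 CPM in PBKi (median 5.17). The libraries of both groups fell apart by replicate number, since replicates 1 to 3 gave 5.10 to 6.31 CPM in DMSO and 5.85 to 6.36 CPM in PBKi, whereas replicates 4 to 6 gave 3.03 to 4.02 CPM in DMSO and 4.42 to 4.50 CPM in PBKi. The overall log2 fold change was 0.15 (95% confidence interval -0.19 to 0.48, adjusted p = 0.491 in edgeR's quasi-likelihood test). Within replicates 1 to 3 it was 0.10 (adjusted p = 0.557 in edgeR) and within replicates 4 to 6 it was 0.32 (adjusted p = 0.232 in edgeR). Of the 6 same-numbered pairs, 5 had the higher value in PBKi. No other IRF gene split by replicate number in both groups in this way. Gene models of GENCODE 44 that overlap 23.9% of the merged exons of IRF9 on the same strand and 8.05% on the other were not analysed here.

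IRF4 and IRF8, the lymphoid and myeloid members that act with partners such as SPI1 and BATF, were close to absent in C4-2 cells. IRF4 (chromosome 6, 391739 to 411443, plus strand) had 3 reads in the 6 DMSO libraries together and 6 in the 6 PBKi libraries, and no library held more than 2. IRF8 (chromosome 16, 85932722 to 85956212, plus strand) had 1 read in DMSO and 3 in PBKi, with no more than 1 per library. In PBKi this corresponds to 0.060 CPM (without TMM scaling) for IRF4 (95% exact Poisson interval 0.022 to 0.130) and 0.030 for IRF8 (0.0061 to 0.087), intervals that cover counting error only. Neither passed the count filter, and exact permutation tests on these CPM gave p = 0.535 for IRF4 and p = 0.182 for IRF8. A difference between the groups was not detectable at this depth.

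**Figure D2:**
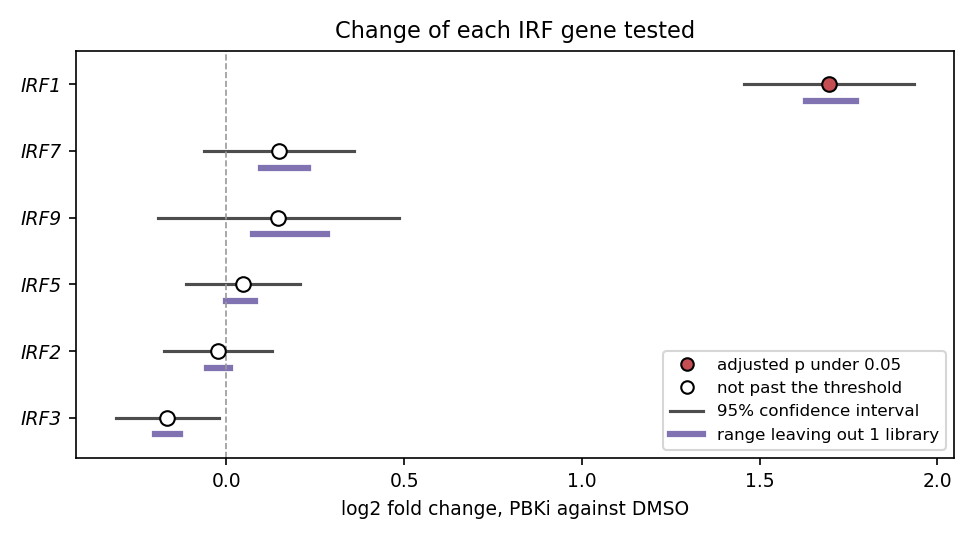
Log2 fold change of PBKi against DMSO for each IRF gene tested (horizontal axis, points with 95% confidence interval, with the range over the 12 fits that leave out 1 library drawn below each point). IRF1 stands at 1.69 with an interval of 1.45 to 1.93, and the intervals of IRF2, IRF5, IRF7 and IRF9 cross 0.

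Levels of different genes can be set side by side only per length of transcript. Per kilobase of merged exons, IRF3 was the most abundant in DMSO at 11.3 ± 1.08 CPM per kilobase, followed by IRF7 at 5.01 ± 0.926, IRF5 at 2.75 ± 0.252 and IRF2 at 1.63 ± 0.0988. IRF9 came next at 0.704 ± 0.192 CPM per kilobase and IRF1 at 0.208 ± 0.0325 (SD, n = 6 each). The ranges of neighbours in this order did not overlap down to IRF4, and those of IRF4 and IRF8 did.

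The order of the means was the same in PBKi, but IRF1 had moved up to its neighbour. IRF1 stood at 0.679 ± 0.0612 CPM per kilobase in PBKi and IRF9 at 0.813 ± 0.140 (SD, n = 6 each), with overlapping ranges. The merged exons of IRF1 span 12265 bases over all annotated transcripts, whereas its canonical transcript has 3554 bases. With canonical lengths, a choice made after seeing the data, the order stayed the same, IRF1 was at 2.34 and IRF9 at 3.24 CPM per kilobase in PBKi with ranges that did not overlap, and the ranges of IRF7 and IRF5 overlapped in both groups.

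The level of IRF1 was also set against each of the other IRF genes within the same library, which restates the rise of IRF1 on another scale since all of these ratios share it. The log2 ratio of IRF1 to IRF3 went from -4.02 ± 0.243 to -2.19 ± 0.218, and that of IRF1 to IRF5 from -2.89 ± 0.311 to -1.25 ± 0.169. For IRF7 it went from -2.30 ± 0.344 to -0.78 ± 0.169, and for IRF9 from -0.78 ± 0.384 to 0.66 ± 0.282 (SD, n = 6 each). IRF9 was thus the gene for which the order of reads turned over, with fewer IRF1 than IRF9 reads per library in DMSO and more in PBKi. The differences were 1.83 for IRF3, 1.64 for IRF5, 1.53 for IRF7 and 1.44 for IRF9, and in all 5 ratios, IRF2 included, the groups did not overlap. Each two-sided exact permutation test gave p = 0.00216, the smallest possible, also after Benjamini-Hochberg adjustment over the 5 ratios. The ratios other than that to IRF2 were added after seeing the data, and these tests are no support beyond that of IRF1 itself.

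**Figure D3:**
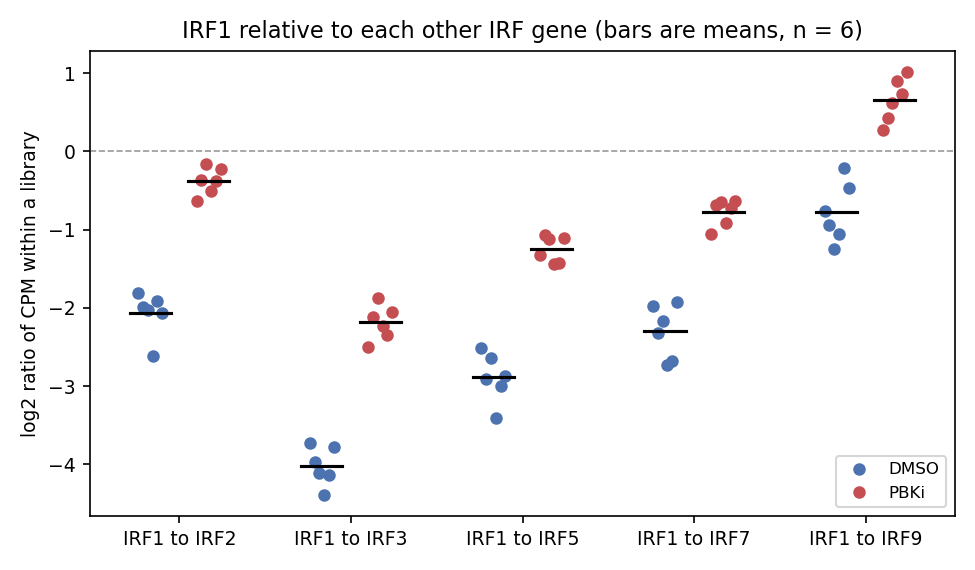
Log2 ratio of IRF1 to each other IRF gene tested within a library (vertical axis, DMSO in blue, PBKi in red, points are libraries, bars are means of 6). All PBKi ratios lie above all DMSO ratios, and only the ratio to IRF9 passes 0, from a mean of -0.78 to 0.66.

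In the annotation used here for coordinates, IRF1 is overlapped by an antisense transcript, IRF1-AS1. Its exons cover 22.9% of the merged exons of IRF1, taken over all annotated transcripts. The overlap in the annotation used for counting was not examined. IRF1-AS1 was at 1.39 ± 0.541 CPM in DMSO and 1.61 ± 0.518 CPM in PBKi (SD, n = 6 each), with a log2 fold change of 0.26 (95% confidence interval -0.26 to 0.79, adjusted p = 0.419 in edgeR's quasi-likelihood test). The groups overlapped, and the mean of IRF1-AS1 was below that of IRF1 in both. Without strand, reads of both genes in the shared stretch cannot be told apart. A Y_RNA gene within the span of all annotated IRF1 transcripts had at most 1 read per library, and SNORD79 within IRF2 had none.

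The ligands that lie between the arms of the pathway were next examined by counting reads, since none of 12 interferon genes passed the count filter and 8 had no read in any library. IFNB1, the interferon that IRF3 and IRF7 induce first, had 0 reads in all 6 DMSO libraries and 23 reads in the PBKi libraries. The PBKi replicates 1 to 6 had 0, 10, 5, 5, 2 and 1 reads, so 5 of 6 libraries held at least 1. The level in PBKi was 0.228 CPM without TMM scaling (95% exact Poisson interval 0.145 to 0.343), and the interval in DMSO reached up to 0.0375 CPM. Set against a floor of 3 reads over the DMSO group, the PBKi level was 7.50-fold, which is a point value and not a lower limit.

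IFNL1, a type III interferon of epithelial cells, had 1 read in DMSO and 14 in PBKi, with 6, 3, 2, 2, 1 and 0 reads in PBKi replicates 1 to 6. Two-sided exact permutation tests on such CPM gave p = 0.0152 for IFNB1 and p = 0.0152 for IFNL1, each unadjusted, with 4 ligands tested. IFNL3 had 5 reads in DMSO and 2 in PBKi (p = 0.424 in the same exact test), and IFNL2 had 1 read in all. No read was counted on IFNG or on any of the 5 interferon alpha genes listed. The libraries with the most reads of each ligand were different ones, since PBKi replicate 1 had no IFNB1 read but the most IFNL1 reads.

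**Figure D4:**
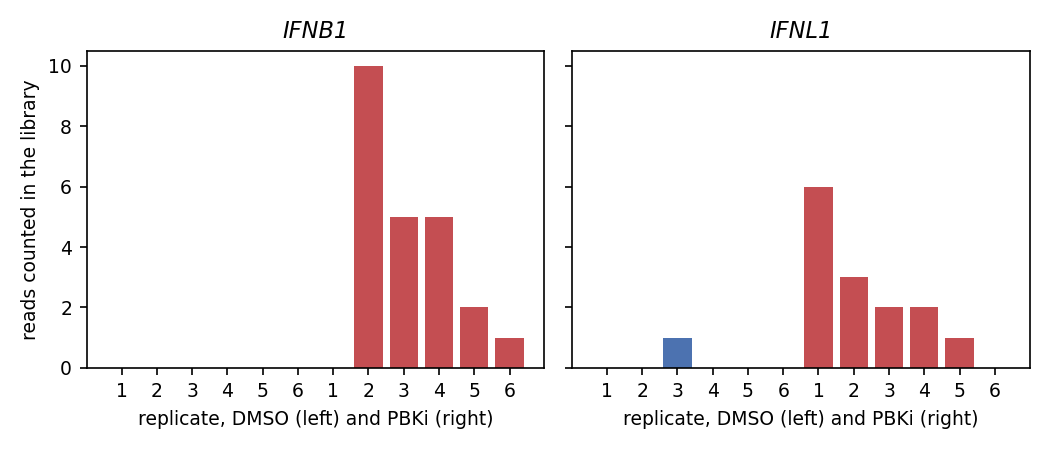
Reads counted on IFNB1 and IFNL1 in each library (vertical axis, DMSO replicates on the left and PBKi replicates on the right of each panel). IFNB1 has 0 reads in every DMSO library and 10 in PBKi replicate 2, and IFNL1 has 1 read in DMSO replicate 3 and up to 6 in PBKi.

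The stretch of the IFNB1 promoter that holds its NF-kB match, 66 to 57 bases before the start, lies at chr9:21077979-21078038, minus strand, with the match in capitals.
IFNB1 promoter: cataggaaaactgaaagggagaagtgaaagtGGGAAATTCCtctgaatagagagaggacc
No ISRE core with exactly 2 bases between its GAAA repeats was found in the 250 bases before the IFNB1 start, which says only that these letters are not in this window. The window also held the GAS letters, 218 to 210 bases before the start and outside the stretch shown. Of all windows searched, 6.57% held them.

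Genes that activate IRF3, IRF5 and IRF7 were led by the RNA sensors. Of 17 such genes tested, 9 were called higher (3 in replicates 4 to 6 alone) and 0 lower, against 20.1% and 21.5% of all genes. Their median was 0.21 on the log2 scale against -0.012 over all genes. For 1 of the 17, every PBKi library but not every DMSO library reached the count minimum. Of the 16 that reached it in every DMSO library, 8 were called higher. RIGI, a sensor of viral RNA, went from 4.31 to 5.55 CPM in DMSO to 13.6 to 22.3 CPM in PBKi, without overlap (log2 fold change 1.83, standard error 0.13, adjusted p = 7.79e-09 in edgeR). IFIH1, a sensor of long double-stranded RNA, rose from 5.76 ± 0.677 to 10.2 ± 1.24 CPM (log2 fold change 0.84), and MAVS, the mitochondrial adaptor of both sensors, rose from 53.8 ± 7.89 to 67.5 ± 5.24 CPM (log2 fold change 0.34; SD, n = 6 each). The kinase TBK1 was at 84.7 ± 7.09 CPM in DMSO and 86.8 ± 2.99 CPM in PBKi (log2 fold change 0.03, adjusted p = 0.678 in edgeR), and the adaptor STING1 was at 1.17 ± 0.277 and 1.33 ± 0.255 CPM (log2 fold change 0.21, adjusted p = 0.405 in edgeR).

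Among the receptors, JAKs and STATs, 5 of 11 tested were called higher and 2 lower (2 and 1 in replicates 4 to 6 alone), against 20.1% and 21.5% of all genes, and the median log2 fold change was 0.14. The kinases JAK2 and JAK1, which relay interferon and other cytokine signals, rose by 0.74 and 0.67 on the log2 scale (adjusted p = 3.54e-07 and 0.000862 in edgeR). IFNGR1, the ligand-binding chain of the interferon gamma receptor, fell by 0.40 (adjusted p = 0.000408 in edgeR).

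STAT2, the partner of IRF9 in ISGF3, moved little. It was at 45.8 ± 3.00 CPM in DMSO and 51.3 ± 2.12 CPM in PBKi (log2 fold change 0.17, adjusted p = 0.0202 in edgeR; SD, n = 6 each). The call was close to the threshold and was lost without DMSO replicate 1 or 3 (adjusted p = 0.0606 and 0.0504 in edgeR). It was also lost with no count filter (adjusted p = 0.0706 in edgeR) and within replicates 4 to 6 (log2 fold change 0.091, adjusted p = 0.462 in edgeR).

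NF-kB genes, which are the 5 subunits together with NFKBIA, an inhibitor of the pathway, and its target TNFAIP3, were called higher in 6 of 7 (3 in replicates 4 to 6 alone) and lower in 0, against 20.1% and 21.5% of all genes. The subunit RELA did not pass the test (log2 fold change 0.014, adjusted p = 0.866 in edgeR). RELB, a subunit of the non-canonical pathway, rose from 0.971 ± 0.399 to 3.61 ± 0.566 CPM (SD, n = 6 each), which is 1.96 on the log2 scale without overlap between groups (adjusted p = 1.58e-06 in edgeR). RELB reached the count minimum in all libraries only in PBKi. TNFAIP3, which limits the pathway, rose by 1.10 and REL by 0.48 on the log2 scale (adjusted p = 1.73e-05 and 0.00721 in edgeR). The REL call was lost without PBKi replicates 3 and 6 (log2 fold change 0.35, adjusted p = 0.0655 in edgeR), the libraries with the most reads outside genes.

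Downstream, most genes listed as targets of ISGF3 were higher in PBKi, while IRF9 itself did not pass the test. Which factor acted on the listed genes was not tested. Of 31 listed, 25 passed the count filter, and 23 of these were called higher and 0 lower, against 20.1% and 21.5% of all genes. Without overlap between the groups 19 were higher, against 10.5% of all genes. For 10 of the 25, every PBKi library but not every DMSO library reached the count minimum (no DMSO library for 4 of them), so these would not have passed the filter on the DMSO libraries alone. Of the 15 that reached it in every DMSO library, 13 were called higher.

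Among them OASL, an antiviral oligoadenylate synthetase-like protein, went from 0 to 0.168 CPM in DMSO to 26.9 to 39.7 CPM in PBKi (log2 fold change 8.06, adjusted p = 1.10e-14 in edgeR). IFIT2, which binds viral RNA, went from 0.325 to 0.831 CPM to 64.6 to 80.0 CPM (log2 fold change 6.97, adjusted p = 7.58e-18 in edgeR). RSAD2, the antiviral enzyme viperin, went from 0 to 0.485 CPM to 15.7 to 22.1 CPM (log2 fold change 6.31, adjusted p = 2.09e-12 in edgeR). These started near the detection limit, so the fold changes carry the counting error of at most 14 reads per DMSO library. The interferon-stimulated gene ISG15, chosen after its values were seen, had more reads in DMSO and went from 11.6 ± 2.89 to 39.3 ± 3.95 CPM (SD, n = 6 each), which is 1.77 on the log2 scale.

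The RSAD2 promoter shows the kind of element to which ISGF3 and IRF1 bind. Capitals mark the ISRE core on the minus strand, 145 to 136 bases before the start of its second RefSeq promoter, in chr2:7017732-7017791 of the plus strand.
RSAD2 promoter: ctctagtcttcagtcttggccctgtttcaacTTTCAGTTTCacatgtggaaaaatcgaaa
In 2 of the 25 genes tested the adjusted p missed the threshold. USP18, an interferon-stimulated protease that restrains the interferon receptor, was at 17.5 ± 1.68 CPM in DMSO and 18.3 ± 1.13 CPM in PBKi (log2 fold change 0.06, adjusted p = 0.507 in edgeR), and BST2, which tethers virions, was at 1.62 ± 0.377 and 1.41 ± 0.185 CPM (log2 fold change -0.19, adjusted p = 0.414 in edgeR; SD, n = 6 each).

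IRF1 target genes of antigen presentation and growth control were called higher in 12 (7 in replicates 4 to 6 alone) and lower in 1 of 19 tested, against 20.1% and 21.5% of all genes. The median log2 fold change was 0.27, and for 4 of the 19 every PBKi library but not every DMSO library reached the count minimum (no DMSO library for 1 of them). Of the 15 that reached it in every DMSO library, 9 were called higher. NLRC5, the transactivator of MHC class I genes, rose from 2.34 ± 0.657 to 12.2 ± 1.92 CPM (log2 fold change 2.44, adjusted p = 9.27e-10 in edgeR; SD, n = 6 each). B2M, the light chain of MHC class I, rose from 146 to 230 CPM in DMSO to 338 to 479 CPM in PBKi (log2 fold change 1.12, adjusted p = 2.70e-07 in edgeR). CDKN1A, the cell cycle inhibitor p21, rose by 0.94 on the log2 scale (adjusted p = 2.94e-09 in edgeR). The gene called lower was BBC3, a pro-apoptotic BH3-only gene named after its values were seen, at a log2 fold change of -0.44 (adjusted p = 0.0160 in edgeR). That call was lost without PBKi replicates 3 and 6, and without DMSO replicate 4 or 6 the count called lower was 2.

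The B2M promoter holds an ISRE and an NF-kB match side by side. Capitals in chr15:45003559-45003618, plus strand, mark overlapping ISRE cores, 144 to 129 bases before the start, and the NF-kB match 125 to 116 bases before it.
B2M promoter: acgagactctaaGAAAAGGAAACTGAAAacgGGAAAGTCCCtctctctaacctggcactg
As at IRF1 and IFNB1, an NF-kB match lies within the 250 bases before the start of this gene. None was found at IRF9 or at either RSAD2 start, and CDKN1A held no GAS, ISRE core or NF-kB match. Of all windows searched, 5.21% held an NF-kB match.

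Partners and regulators of IRF proteins included genes called in both directions. Of 14 tested, 5 were called higher and 2 lower (0 and 1 in replicates 4 to 6 alone), against 20.1% and 21.5% of all genes, and the median log2 fold change was 0.085. TRIM21, a ubiquitin ligase for IRF3, IRF5 and IRF8, rose by 0.40, ETV6, a repressor at interferon-stimulated genes, by 0.33 and RBCK1, a regulator of IRF3 turnover, by 0.30 on the log2 scale (adjusted p = 0.000185, 0.00694 and 0.00136 in edgeR). The largest change was that of BATF3, a dimer partner of the AP-1 family for IRF4 and IRF8, at -0.81 (adjusted p = 0.00167 in edgeR), and without PBKi replicate 3 the count called lower was 1 in place of 2. Without DMSO replicate 3 the count called higher was 3 in place of 5.

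Inhibitors of JAK-STAT signalling included none that was called higher and 4 of 11 that were called lower (2 in replicates 4 to 6 alone), against 20.1% and 21.5% of all genes. SOCS2 fell from 9.04 ± 0.927 to 4.76 ± 0.208 CPM, and CISH from 2.75 ± 0.472 to 1.76 ± 0.380 CPM (SD, n = 6 each). PIAS3, which binds activated STAT3, fell from 55.3 ± 4.81 to 40.3 ± 2.26 CPM. The log2 fold changes were -0.94, -0.64 and -0.45 (adjusted p = 2.31e-07, 0.00421 and 1.53e-05 in edgeR). Without DMSO replicate 5, 1 of the 11 was called higher.

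**Figure D5:**
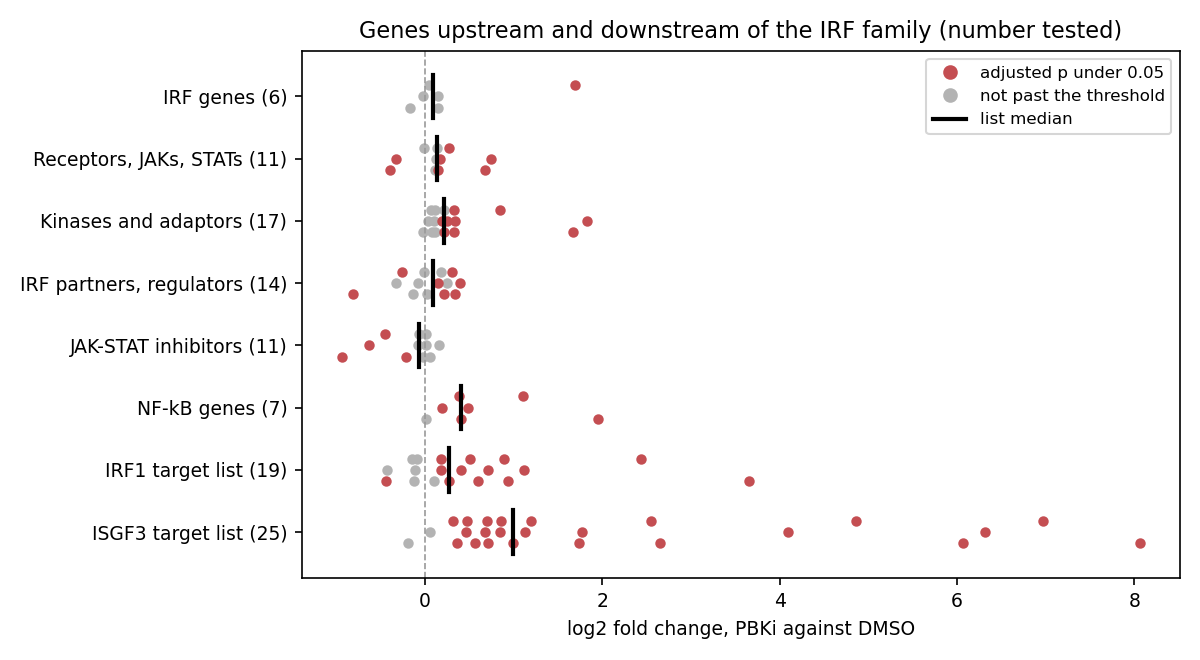
Log2 fold change of PBKi against DMSO (horizontal axis) for the IRF genes tested and for lists of genes upstream and downstream of them, with the number tested in brackets, red points for an adjusted p under 0.05 in edgeR and black bars for the list median. Of the IRF genes only IRF1 is red, whereas 23 of 25 genes of the ISGF3 target list are, up to OASL at 8.06.

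The cell markers moved alongside these lists. Over all genes 20.1% were called higher and 21.5% lower. Of the 11 luminal markers 7 were called lower and 1 higher, led by KLK2, KLK3 and TMPRSS2 with log2 fold changes of -1.48, -1.39 and -1.24, and without DMSO replicate 5 the count called higher was 2. Of the 3 immune markers tested 2 were called higher, a count of 1 without DMSO replicate 2 or 3 or PBKi replicate 4 or 6, with CD68, a lysosomal protein also present outside macrophages, at 3.36 ± 0.783 CPM in DMSO and 5.52 ± 0.584 CPM in PBKi (SD, n = 6 each). Of the 3 stromal and endothelial markers tested 2 were called lower, VWF and PDGFRB, at -0.50 and -0.39, and neither was called without PBKi replicates 3 and 6. PDGFRB was also not called when DMSO replicate 3, 4, 5 or 6 or PBKi replicate 1, 2, 3, 4 or 6 was left out (adjusted p = 0.0516 to 0.0982 in edgeR). The part of these differences in the values of the IRF genes was not tested, and IRF4 and IRF8, which lymphoid and myeloid cells carry, stayed at no more than 2 reads per library.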

How the data were processed

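RNAseq libraries of C4-2 cells were sequenced as single-end reads of 40 bases. The authors aligned them to GRCh37 (Ensembl 64 annotation) with TopHat2 2.0.4 and deposited raw gene-level read counts made with HTSeq 0.5.3p9 in 47 lane files. Versions are those of the submitters' processing notes, which also name DESeq 1.10.1. Lane counts of a library agreed within sampling noise (chi-square divided by its degrees of freedom 0.990 to 1.02, against 3.74 to 22.2 between replicates) and were added up. Each library had 4 lanes, except DMSO replicate 5 with 3. Entries that name no gene were left out, namely reads outside genes (5.74% to 6.96% of a DMSO library, 5.94% to 9.30% of a PBKi library, most in PBKi replicates 3 and 6) and ambiguous reads (3.87% to 4.35%).

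Groups and replicate numbers were taken from the titles in the labels, which do not say what a number marks. Genes that reached 10 counts in 6 or more libraries were tested in R 4.3.3 with edgeR 4.0.16 (TMM normalisation, quasi-likelihood test, no covariates) and adjusted by the Benjamini-Hochberg method at 0.05. CPM are TMM-normalised, and log2 CPM used a prior count of 2. Permutation tests were two-sided and exact (scipy 1.17.1 in Python 3.11.15). Genes under the filter were given as counts with exact Poisson intervals at 95% and a floor of 3 counts, which cover counting error only, a scale chosen after seeing the data, as were the canonical lengths. The procedure was tested on simulated data.

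The IRF genes and the gene lists were chosen with earlier results of these data known, so the lists describe these data and are no independent support. Named genes were the 8 IRF genes, genes that overlap or start within 1 kb of one, in each list the 3 called genes with the largest change and a mean log2 CPM of 1 or more, and STAT2, TBK1 and STING1, and 1 further gene of this rule is not reported here. Those most like IRF1 by Pearson's r among genes of mean log2 CPM of 3 or more were also named, and a few others from the lists are marked as chosen later or stand in counts. IKBKE, SPIB and PECAM1 were not matched by symbol and are not analysed here. Coordinates and exon lengths came from GENCODE 44 mapped to GRCh37, and promoters from RefSeq sequences matched to GRCh37. The reads were counted with the authors' own annotation, so the spans, overlaps and lengths given here may not be those of the counted genes. Alternatives were DESeq2 1.42.0, limma-voom (limma 3.58.1), RLE factors, library size alone, other count filters, lanes 6 to 8, a replicate block, replicate sets, stricter thresholds and leaving out libraries.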

Additional observations from a re-analysis of the deposited data

Results flagged for a closer look

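Single libraries stood apart from the other 5 of their group in 8 of the 78 gene and group combinations examined (by Dixon's test of the gap to the nearest library, which chance alone passes in about 1 of 20), and in no IRF gene. RIGI was at 5.55 CPM in DMSO replicate 3, against 4.31 to 4.71 CPM in the other DMSO libraries. TBK1 was at 71.3 CPM in DMSO replicate 5 (others 84.1 to 91.4), which also had PIAS3 at 64.9 CPM (others 51.8 to 54.7) and SOCS2 at 7.25 CPM (others 8.94 to 9.84). REL was at 5.20 CPM in DMSO replicate 6 (others 3.19 to 3.84), and OASL was listed at 0 CPM in DMSO replicate 2 (others 0.108 to 0.168). In PBKi, ETV6 was at 12.2 CPM in replicate 5 (others 10.1 to 10.5) and KLK2 at 93.9 CPM in replicate 3 (others 169.6 to 203).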

How the results depend on the processing

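IRF1 was called higher under all 25 alternatives run, with log2 fold changes of 1.61 to 1.86. IRF2, IRF5 and IRF9 were called under none of theirs. The number of IRF genes called higher was 1, or 2 without DMSO replicate 5 (IRF7, log2 fold change 0.23, adjusted p = 0.0302 in edgeR), so it ran from 1 to 2 with each library left out. The number called lower was 0, and 1 (IRF3) with a covariate for replicate sets (log2 fold change -0.17, adjusted p = 0.0443 in edgeR), in replicates 1 to 3 only (-0.23, 0.0242) and without DMSO replicate 6 or PBKi replicate 1, so it ran from 0 to 1. With each library left out, the log2 fold change was -0.20 to -0.13 for IRF3 and 0.097 to 0.23 for IRF7.

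The same-numbered libraries were not taken as pairs, because 1 of the 6 correlations of their deviations was not over 0.1. All 6 were positive (0.0887 to 0.299, mean 0.198), and 8 of 12 libraries were closest to their own number. Shared effects of the replicate number are therefore possible, and what a number marks is not stated. With the replicate block, 1 IRF gene was called lower (IRF3, log2 fold change -0.17, adjusted p = 0.0416 in edgeR), and IRF1 stayed at 1.71. The ratio of IRF1 to IRF2 was 1.69 with a sign-change test over the pairs (exact permutation p = 0.03125, the smallest possible). It was 1.56 in replicates 1 to 3 only and 1.82 in replicates 4 to 6 only (p = 0.1 each, the smallest an exact test of 3 against 3 allows). The tool, scaling, count filter and covariate alternatives were not run for this ratio, which is taken within a library.

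Over all genes, 1303 were called higher and 1216 lower in replicates 4 to 6 only, and 1278 higher and 626 lower when a change of 0.5 or more on the log2 scale was also required. The number lower was 2076 without PBKi replicates 3 and 6 and 2073 at an adjusted p under 0.01. The cause was not tested, other than fewer libraries or a stricter rule. Depth limits IRF4, IRF8 and the interferon genes, with at most 10 reads per library.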

Other observations

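The genes whose level followed IRF1 most closely over the 12 libraries, among 10040 genes of mean log2 CPM 3 or more, were LCN2, an iron-sequestering protein of innate immunity (Pearson's r = 0.985), ANGPT2, a ligand of the vascular TIE2 receptor (0.984), and AKR1C1, a steroid-reducing enzyme (0.983). All of them were near the detection limit in DMSO. LCN2 went from 0.303 ± 0.154 to 24.9 ± 4.94 CPM, ANGPT2 from 0.427 ± 0.146 to 33.7 ± 4.50 CPM and AKR1C1 from 0.152 ± 0.0951 to 32.7 ± 6.33 CPM (SD, n = 6 each). Such correlations mostly follow the difference between the groups and are given as descriptions.

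After the group means were taken out, the genes most like IRF1 were different ones. These were LEF1, a transcription factor of WNT signalling (r = 0.825), CDPF1 (0.798) and EBF3, a transcription factor of the early B cell factor family (0.791). LEF1 rose by 0.49 on the log2 scale, whereas CDPF1 fell by 0.49 and EBF3 by 0.24 (adjusted p = 0.000553, 0.000106 and 0.0370 in edgeR). These are the highest of 10040 correlations over 12 libraries, and how high the top values would be with no relation was not tested.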
